A study of Mus musculus with 37 samples.

Results

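The miR-25/92 seed family is the group of microRNAs that carry the same bases 2 to 8, the seed with which a microRNA finds its target messages. Its members here were mmu-miR-25-3p, mmu-miR-92a-3p, mmu-miR-92b-3p, mmu-miR-32-5p and mmu-miR-363-3p. They were found by name in a count table of mouse blood, 5 of the 1915 mature microRNAs that the table holds. Where the table gave a microRNA more than 1 row, its first row was used.

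The counts came from small RNA sequencing of whole blood of C57BL/6 mice. They were male and housed singly, and blood was taken from behind the eye every 6 weeks. There were 9 libraries at 12 months of age, 12 at 13.5 months, 5 at 15 months and 11 at 16.5 months. The mice belonged to a group that was trained and tested in a water maze: the blood at 12 months was taken before any behavioural test, and the later samples after one. Age and training therefore rise together in these libraries and cannot be told apart. The same mice were sampled again, but the labels do not tie a library to a mouse, so p-values measure the spread between libraries. No gene was altered and no drug was given as a treatment, but blood was drawn under isoflurane anaesthesia.

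A microRNA is cut from a hairpin precursor and guides a silencing complex to messages that pair with its seed. Members of one seed family can therefore share targets even when they are made from different chromosomes. mmu-miR-92a-3p is made from the miR-17/92 cluster, known as an oncogenic cluster in blood cells, and from its relative on the X chromosome. mmu-miR-25-3p belongs to the last of these related clusters, inside the gene Mcm7, which encodes a subunit of the DNA replication helicase. Red cells carry much of the microRNA of whole blood, above all miR-486 and miR-451a, and mmu-miR-92a-3p is also abundant in them. In whole blood, fewer cells of a type and less RNA per cell cannot be told apart.

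The mature sequences, from RefSeq on GRCm38.p6, show what the family shares and where its members part. The seed stands in capitals.
mmu-miR-25-3p: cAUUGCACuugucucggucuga
mmu-miR-92a-3p: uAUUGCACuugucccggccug
mmu-miR-92b-3p: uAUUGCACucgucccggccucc
mmu-miR-32-5p: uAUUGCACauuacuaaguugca
mmu-miR-363-3p: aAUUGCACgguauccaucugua
Outside the seed the members were not alike to the same degree. Over the 21 bases of mmu-miR-92a-3p, mmu-miR-92b-3p differed at 2 positions (U10C, G21C, counted from the 5′ end, the base of mmu-miR-92a-3p first) and mmu-miR-25-3p at 3 (U1C, C14U, C18U). mmu-miR-32-5p differed at 10 positions and mmu-miR-363-3p at 11, all but the first base of the latter lying 3′ of the seed. The share of G and C bases was 63.6% in mmu-miR-92b-3p, 57.1% in mmu-miR-92a-3p, 50% in mmu-miR-25-3p, 40.9% in mmu-miR-363-3p and 31.8% in mmu-miR-32-5p. In the RefSeq table, 6 of 1679 mature microRNAs held this seed. The sixth, miR-367-3p, had 0 reads in each of the 37 libraries.

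The 5 members come from 6 precursors. On mm10, the precursor of mmu-miR-25-3p lies at chr5:138165321-138165404 on the minus strand, within Mcm7 and on its strand, in an exon of a retained-intron transcript only. mmu-miR-92a-3p has a copy at chr14:115044427-115044506, plus strand, in an exon of the noncoding host gene Mir17hg, and a second at chrX:52741838-52741928, minus strand, in no other annotated gene. mmu-miR-363-3p lies beside that copy, at chrX:52741693-52741767. mmu-miR-92b-3p comes from chr3:89227116-89227198, minus strand, 28 bases from Mtx1 and in no other gene. mmu-miR-32-5p comes from an intron of Tmem245, at chr4:56895229-56895298, on the minus strand like its host.

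A pair of members held nearly all of the family's reads. Libraries held between 2619533 and 20268095 counts, of which miR-486a-5p and miR-486b-5p left only 140292 to 1131713 for all other microRNAs. These names had the same fold changes between all ages, so the library counts may hold the same reads under both, which was not tested. mmu-miR-92a-3p had between 20801 and 436188 reads in a library (median 73849) and mmu-miR-25-3p between 8545 and 127561 (median 45375). mmu-miR-92b-3p had a median of 23 reads, mmu-miR-363-3p of 10, and mmu-miR-32-5p had 0 reads in most libraries. The last 3 together made up between 0.0132% and 0.0612% of the family's reads. With miR-486b-5p set aside, mmu-miR-92a-3p ranked between 2 and 6 among all microRNAs and mmu-miR-25-3p between 3 and 7. The family as a whole took between 11.8% and 63.8% of the counts outside miR-486, with medians of 17.7%, 35.0%, 23.0% and 24.9% from the youngest age to the oldest.

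**Figure D1:**
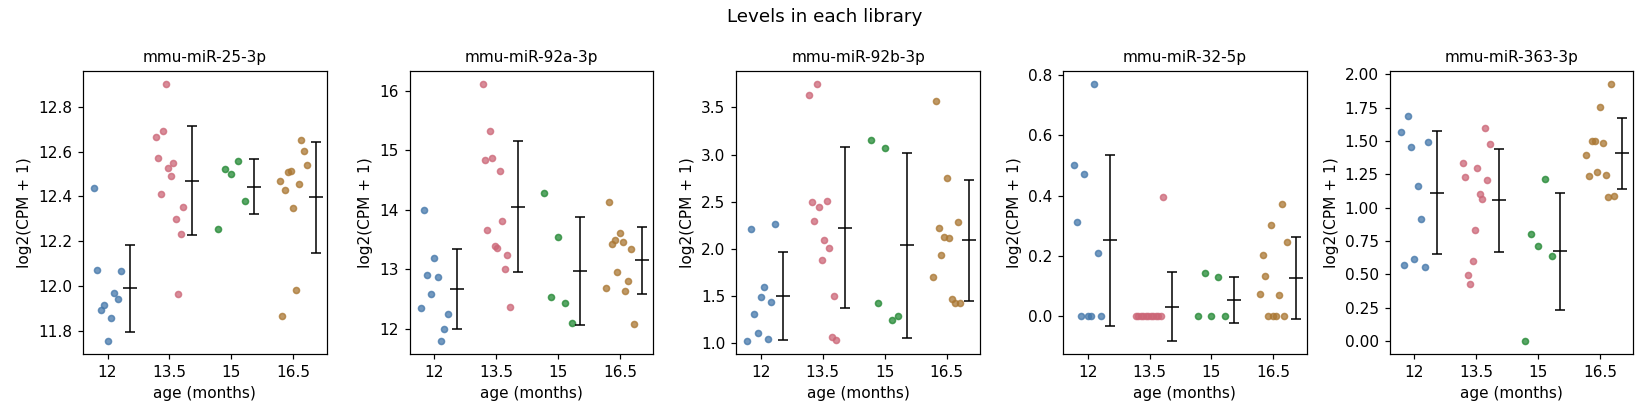
Level of each member in every library, as log2(CPM + 1), against age in months; each point is a library, and the bar to its right is the mean ± SD of 9, 12, 5 and 11 libraries, with its own vertical scale in each panel. mmu-miR-25-3p lies within a narrow band in which 8 of 9 libraries at 12 months lie below every library at 15 months, while mmu-miR-92a-3p ranges from 3554 to 71270 CPM.

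Levels below are in CPM, read counts set to a common library size, with TMM scaling (the trimmed mean of M-values), which corrects libraries for composition. mmu-miR-25-3p was lower at 12 months than at 13.5 and 16.5 months, and its later levels lay close together. At 12 months the lowest, median and highest library had 3456, 3934 and 5546 CPM. At 13.5 months the 3 values were 3998, 5828 and 7655 CPM, and at 16.5 months 3733, 5662 and 6427 CPM. The 5 libraries at 15 months had 4892, 5872, 5790, 6028 and 5333 CPM, a mean of 5583 ± 465 (SD, n = 5) against 4101 ± 604 (SD, n = 9) at 12 months. Groups overlapped, but all 12 libraries at 13.5 months and all 5 at 15 months lay above the 12-month median, as did 10 of 11 at 16.5 months.

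In edgeR's quasi-likelihood F-test over the 4 ages, run on the 87 microRNAs whose reads exceeded 100 in 50% of the libraries or more, mmu-miR-25-3p passed with an adjusted p of 0.0013. Both members that this filter kept passed, where 58.6% of all microRNAs tested did, so passing did not set them apart. mmu-miR-25-3p rose 1.40-fold from 12 to 13.5 months (log2 0.49, SE 0.11, adjusted p = 0.00038 in edgeR), a comparison in which 20.7% of microRNAs were called higher. It stood 1.33-fold above 12 months at 16.5 months (log2 0.41, SE 0.11, adjusted p = 0.0054 in edgeR), where only 5.75% were called higher. At 15 months the difference was log2 0.445 (SE 0.13), with an adjusted p of 0.051 in edgeR. That comparison called 0 of 87 microRNAs in edgeR, though 16 had an unadjusted p under 0.05 and DESeq2 called 8, mmu-miR-25-3p among them (adjusted p = 0.012 in DESeq2). In edgeR it passed there without any one of 8 libraries (12 months replicates 1, 5 and 9, 13.5 months replicates 5, 7, 10 and 11, 16.5 months replicate 2).

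Among the 3 later ages, no difference of mmu-miR-25-3p passed. The largest was log2 -0.07 between 16.5 and 13.5 months, with a 95% interval of -0.277 to 0.128 (edgeR). Its spread between libraries was also small. The biological coefficient of variation, edgeR's estimate of the spread beyond counting error, was 0.195, rank 82 of 87 from the most variable, where the median microRNA had 0.320.

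The size of these rises depended on how libraries were scaled, and miR-486 fills most of each library. Scaled by total count alone, mmu-miR-25-3p stood log2 0.28 above 12 months at 13.5 months and differed by -0.20 at 15 months, and neither passed. At 16.5 months it then stood 0.10 above (adjusted p = 0.83 in edgeR). Scaled by counts outside miR-486, the rise at 16.5 months was 0.36 (adjusted p = 0.053 in edgeR). With no filter on low counts the adjusted p was 0.051 at 13.5 months and 0.22 at 16.5 months. Under total-count scaling the median microRNA itself shifted by -0.66 between 12 and 15 months. Measured from the median of all 87 microRNAs, mmu-miR-25-3p was higher by 0.37 to 0.40 at 13.5 months, by 0.39 to 0.46 at 15 months and by 0.41 to 0.43 at 16.5 months over 5 scalings. A change of scaling moves mmu-miR-25-3p and that median nearly alike. The narrow ranges are therefore largely fixed by the measure and do not show that the rises hold under every scaling. Without any one of 3 libraries (13.5 months replicate 6, 15 months replicate 4, 16.5 months replicate 5) the rise at 13.5 months came to 0.74, and that at 16.5 months to 0.62 or 0.63. It was 0.63 at 16.5 months also without 16.5 months replicate 7. The library that TMM scaling took as its reference moved both rises as far with every library kept. They were 0.49 and 0.41 with 16.5 months replicate 5 as reference, as in the main fit, and 0.74 and 0.63 with 13.5 months replicate 5. Whether a changed reference lies behind the values without single libraries was not tested.

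mmu-miR-92a-3p rose at 13.5 months and was lower again after. The lowest, median and highest library had 3554, 6157 and 16356 CPM at 12 months, and 5309, 13724 and 71270 CPM at 13.5 months. The 5 libraries at 15 months had 19849, 5947, 11980, 5515 and 4380 CPM, and at 16.5 months the 3 values were 4339, 10354 and 17873 CPM. The ages overlapped widely: 5 of 12 libraries at 13.5 months lay above the highest 12-month library, and 1 of 11 libraries at 16.5 months lay above the 13.5-month median.

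The F-test over ages gave mmu-miR-92a-3p an adjusted p of 0.00097 (edgeR). It rose 3.12-fold from 12 to 13.5 months (log2 1.64, SE 0.38, adjusted p = 0.00082 in edgeR). It fell to 0.425 of that level at 15 months (log2 -1.24, SE 0.47, adjusted p = 0.033 in edgeR) and to 0.434 at 16.5 months (log2 -1.21, SE 0.35, adjusted p = 0.0045 in edgeR). In these 2 comparisons 23.0% and 27.6% of microRNAs were called lower. Against 12 months, the levels at 15 and 16.5 months did not pass, with log2 0.40 (95% interval -0.52 to 1.33) and 0.43 (-0.33 to 1.20) in edgeR. The fall to 15 months was log2 -1.94 without 15 months replicate 1, the highest of that age. Scaled by counts outside miR-486 it was -0.92 and no longer passed (adjusted p = 0.059 in edgeR). Those counts include mmu-miR-92a-3p itself, at a median of 24.4% of them at 13.5 months and 11.6% at 15 months. That scaling therefore takes up part of the change of mmu-miR-92a-3p. Neither fall passed in the second of its 2 count rows, which are described later.

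**Figure D2:**
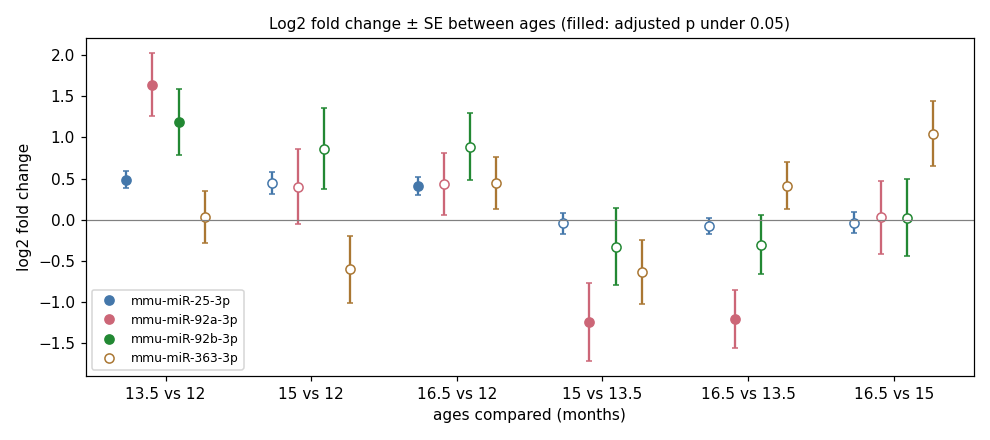
Log2 fold change between each pair of ages, with its standard error as bars; filled points passed an adjusted p under 0.05 (edgeR), with mmu-miR-25-3p and mmu-miR-92a-3p fitted among 87 microRNAs and mmu-miR-92b-3p and mmu-miR-363-3p among 323. mmu-miR-92a-3p stands at 1.64 from 12 to 13.5 months and below 0 from 13.5 months to both later ages, while mmu-miR-25-3p stays between 0.41 and 0.49 against 12 months.

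The spread of mmu-miR-92a-3p between libraries of 1 age was wide, with a biological coefficient of variation of 0.566, rank 8 of 87. Several measures moved with it. Its share of the counts outside miR-486 ran from 5.54% to 57.7%, while that of miR-451a, a microRNA of red cell development, ran from 0.505% to 29.7%. Over the 37 libraries the log2 levels of the pair had a Pearson r of -0.93 and a Spearman rho of -0.93. Without the 2 libraries farthest from the median of mmu-miR-92a-3p r was -0.90, after removal of the age means it was -0.91, and within the ages it lay between -0.845 and -0.995. Both levels share a library and its scaling, so the values are a description.

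Base composition moved with it as well. In each library, the slope of log2 level on GC content was taken over the 71 tested microRNAs with a RefSeq sequence, members left out. mmu-miR-92a-3p had an r of 0.74 with this slope over the libraries, and a mean of 0.815 within ages. Over the 71 microRNAs the tie was looser: GC content had a Spearman rho of 0.36 with their r with mmu-miR-92a-3p. The slope was also used as a covariate, chosen after seeing the data. The rise of mmu-miR-92a-3p from 12 to 13.5 months was then log2 1.06 (adjusted p = 0.00035 in edgeR). With 1 factor for hidden variation (RUVs) the rise was 0.87 (adjusted p = 2.5e-05 in edgeR). With that factor the fall from 13.5 months was -0.77 to 15 months and -0.75 to 16.5 months (adjusted p = 0.00069 and 1.6e-05 in edgeR). The parts of base composition and of red cell content in the result were not tested. For mmu-miR-25-3p the r with the slope was 0.18, and the same rise stayed at log2 0.48 in both fits.

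**Figure D3:**
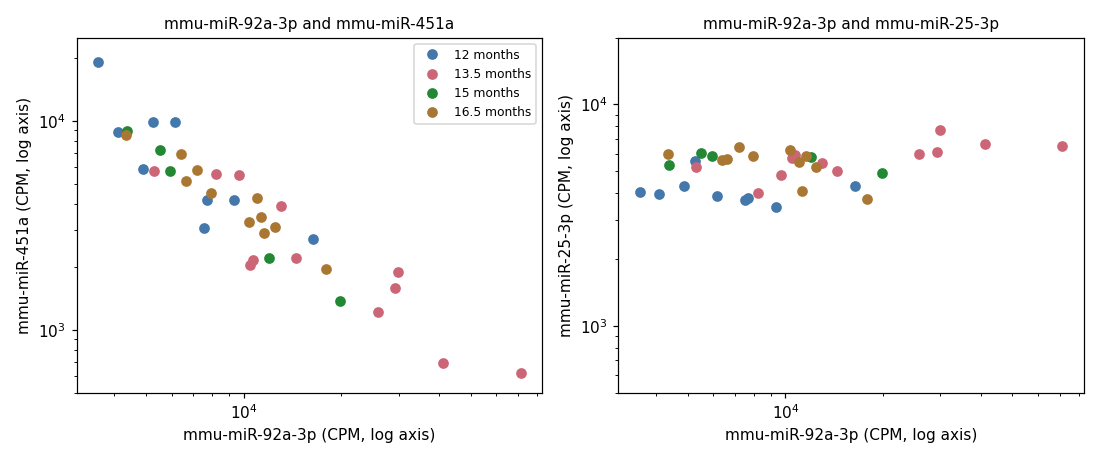
Level of miR-451a (left) and mmu-miR-25-3p (right) against that of mmu-miR-92a-3p, in CPM on log axes; each point is 1 of 37 libraries, coloured by age. miR-451a falls as mmu-miR-92a-3p rises (r of -0.93), while mmu-miR-25-3p stays between 3456 and 7655 CPM.

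By likeness of log2(CPM + 1) over the 37 libraries, the 3 tested microRNAs closest to mmu-miR-92a-3p were miR-676-3p (r 0.91), miR-1198-5p (0.90) and let-7c-5p (0.88). The 3 closest to mmu-miR-25-3p were less alike: miR-151-3p (0.52), miR-30a-3p (0.49) and miR-181b-5p (0.39). Least like mmu-miR-92a-3p of 86 were miR-451a (-0.93), miR-30b-5p (-0.86) and miR-181c-5p (-0.84), and least like mmu-miR-25-3p were miR-30b-5p (-0.51), miR-142a-5p (-0.51) and miR-22-3p (-0.50). Between mmu-miR-25-3p and mmu-miR-92a-3p themselves r was 0.36, with a Spearman rho of 0.29. Within ages the pair had no common direction: r was -0.17, 0.71, -0.56 and -0.64 from 12 to 16.5 months of age.

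mmu-miR-92a-3p has 2 count rows, which the authors' table does not assign to a precursor. The precursors carry an identical mature sequence and part at the base just after it, as the 4 bases on either side show (RefSeq, mature sequence in capitals).
Mir92-1: auggUAUUGCACUUGUCCCGGCCUGuuga
Mir92-2: aaagUAUUGCACUUGUCCCGGCCUGagga
A read that stays within the mature sequence can match both precursors, as can one that runs 1 base past its 5′ end. With no mismatch allowed, a read that runs past the 3′ end, or farther past the 5′ end, can match only 1 of them. The second row held between 23.0 and 62.1 reads per 100 reads of the first. For the other microRNAs with 2 rows this proportion was mostly near 100, as for miR-19b-3p (median 101) and miR-16-5p (100). miR-486b-3p was an exception, at 12.1 to 28.2 (median 22), and miR-128-3p had a median of 90.5.

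The proportion had its lowest values at 13.5 months and was not tested. The median was 40.7 per 100 at 12 months (lowest 38.0, highest 62.1) and 30.7 at 13.5 months (23.0 to 49.4). The 5 libraries at 15 months had 43.8, 41.8, 52.4, 46.3 and 44.1, and the median at 16.5 months was 43.7 (41.9 to 56.3). Lengths of reads were not analysed here, so what the rows differ in was not tested. The age course of mmu-miR-92a-3p was weaker in the second row. With that row in place of the first, a choice made after seeing the data, the rise to 13.5 months was log2 1.07 (adjusted p = 0.015 in edgeR). The falls to 15 and 16.5 months were then log2 -0.61 and -0.60 and no longer passed (adjusted p = 0.28 and 0.14 in edgeR), and the F-test gave an adjusted p of 0.056. With rows summed, the rise was log2 1.62 and the falls -1.24 and -1.21, and each passed (adjusted p = 0.001, 0.036 and 0.0049 in edgeR).

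**Figure D4:**
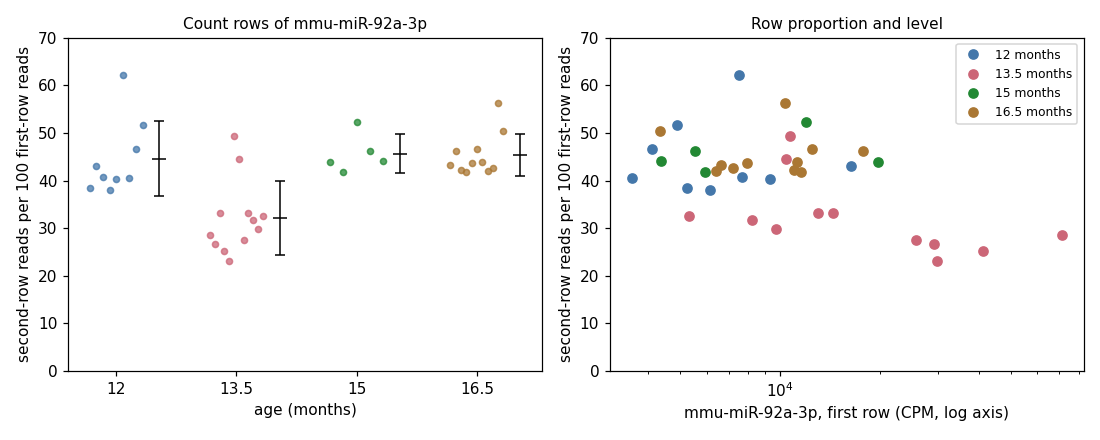
Reads in the second count row of mmu-miR-92a-3p per 100 reads in its first row, by age in months (left, points are libraries, bars mean ± SD) and against the CPM of the first row on a log axis (right). The 13.5-month libraries hold the lowest values, with a median of 30.7 and a range of 23.0 to 49.4.

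The remaining members were too scarce for the filter of 100 reads, so they were tested among the 323 microRNAs whose reads exceeded 1 in 50% of the libraries or more. There 2 of the 4 members tested passed the F-test over ages, mmu-miR-25-3p (adjusted p = 0.003) and mmu-miR-92a-3p (0.00026, both edgeR), where 32.2% of all did. In the pairs of ages both kept the calls made above, in comparisons where 9.91% (13.5 against 12 months) and 4.64% (16.5 against 12 months) were called higher, and 6.50% (15 against 13.5 months) and 14.9% (16.5 against 13.5 months) lower.

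mmu-miR-92b-3p was present in every library, with between 4 and 72 reads. At 12 months the lowest, median and highest library had 1.04, 1.72 and 3.8 CPM, and at 13.5 months 1.05, 3.60 and 12.5 CPM. The 5 libraries at 15 months had 7.90, 1.70, 7.39, 1.37 and 1.44 CPM, and at 16.5 months the values were 1.68, 3.34 and 10.8 CPM. Groups overlapped, with 6 of 12 libraries at 13.5 months above the highest at 12 months.

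Its F-test over ages did not pass (adjusted p = 0.11 in edgeR), and 1 of its 6 pairs did: it rose 2.28-fold from 12 to 13.5 months (log2 1.19, SE 0.40, adjusted p = 0.032 in edgeR). That call was not firm. The adjusted p reached 0.05 to 0.074 without any one of 7 libraries (12 months replicates 1, 4, 7 and 8, 13.5 months replicates 1, 4 and 5), and 0.1 in edgeR with libraries scaled by total count or by counts outside miR-486. With the GC slope as covariate it was log2 0.69 (adjusted p = 0.061 in edgeR), and with 1 RUVs factor 0.51 (adjusted p = 0.1 in edgeR). Without 13.5 months replicate 12 its F-test passed (adjusted p = 0.047 in edgeR). mmu-miR-92b-3p moved with mmu-miR-92a-3p from library to library, with r 0.83 and rho 0.84 over 37 libraries and 0.85 after removal of age means. There were between 13.4 and 77.7 reads of mmu-miR-92b-3p per 100000 reads of mmu-miR-92a-3p. The pair differ at 2 bases, and whether any reads of the rare member came from the abundant one was not tested, so its values are uncertain.

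mmu-miR-363-3p, made next to the X-linked copy of mmu-miR-92a-3p, showed no such rise. Its lowest, median and highest levels were 0.469, 1.24 and 2.22 CPM at 12 months, 0.346, 1.23 and 2.03 at 13.5 months, and 1.11, 1.64 and 2.81 at 16.5 months. The libraries at 15 months had 0, 0.744, 0.643, 1.32 and 0.554 CPM, where the 0 allows up to 3 reads or 1.25 CPM in a shallow library. Summed reads were 78 over 9 libraries, 121 over 12, 44 over 5 and 167 over 11, in order of age. Its F-test did not pass (adjusted p = 0.15 in edgeR, and 0.049 without 15 months replicate 4). From 12 to 13.5 months the difference was log2 0.03, with a 95% interval of -0.61 to 0.67 (edgeR). None of its 6 pairs passed in edgeR or in DESeq2. The lowest unadjusted p, and the only 1 of 6 under 0.05, was 0.0112, for the step of log2 1.05 (SE 0.39) from 15 to 16.5 months (adjusted p = 0.23 in edgeR). Over the 37 libraries its r with mmu-miR-92a-3p was -0.195 and its rho -0.16.

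mmu-miR-32-5p was too scarce for either filter, so its level was not tested between ages. It had 35 reads in all, in 15 of 37 libraries: 16 reads in 5 of 9 libraries at 12 months, 3 reads in 1 of 12 at 13.5 months, 3 reads in 2 of 5 at 15 months and 13 reads in 7 of 11 at 16.5 months. The highest library had 8 reads (0.707 CPM, 12 months replicate 7). At 13.5 months the 11 libraries without a read allow up to 3 reads each, which was 2.28 CPM in the library where a read weighs most. With an exact Poisson interval, for counting error only, 3 reads over that age could stand for 0.6 to 8.8 reads.

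A ratio of members within 1 library does not depend on the scaling between libraries. Reads of each other member were set against those of mmu-miR-92a-3p, with 0.5 added to each count, and compared between ages with two-sided permutation tests on group means, exact except for 13.5 against 16.5 months (100000 resamples). There were 24 such comparisons, and 5 passed after Benjamini-Hochberg adjustment. Reads of mmu-miR-92a-3p were those of its first count row, and ratios to its second row alone were not tested.

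For each read of mmu-miR-92a-3p there was a median of 0.627 reads of mmu-miR-25-3p at 12 months (0.263 to 1.13), 0.383 at 13.5 months (0.0910 to 0.984) and 0.600 at 16.5 months (0.209 to 1.37). The 15-month median was 0.987, with a range of 0.246 to 1.22. All ages overlapped. The log2 ratio averaged -0.67 ± 0.73 (SD, n = 9) at 12 months and -1.59 ± 0.94 (SD, n = 12) at 13.5 months, lower by 0.91, with a raw p of 0.027 and an adjusted p of 0.079 in the exact permutation test. From 13.5 to 16.5 months it was higher by 0.83 (permutation p = 0.030, adjusted p = 0.079). A difference in course between the pair therefore missed the threshold. Without 13.5 months replicate 12, the library with the least mmu-miR-92a-3p at that age, both passed (permutation tests, adjusted p = 0.028 each), and 9 of the 24 comparisons did. Without 12 months replicate 2, the first of them passed (exact permutation, adjusted p = 0.037), and without 16.5 months replicate 2 the second did (permutation, adjusted p = 0.036).

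The ratio of mmu-miR-92b-3p to the first row of mmu-miR-92a-3p was higher at both later ages than at 13.5 months. The median was 19.4 reads per 100000 at 13.5 months (13.4 to 31.3), 32.9 at 15 months (24.9 to 61.7) and 34.2 at 16.5 months (23.7 to 60.6). The log2 difference was 0.77 at 16.5 months (permutation test, adjusted p = 0.0077) and 0.81 at 15 months (exact permutation test, adjusted p = 0.018). The latter missed the threshold without 15 months replicate 1 (exact permutation, adjusted p = 0.055) or replicate 3 (0.089). Of 5 alternatives, it also missed in a test of medians (permutation, adjusted p = 0.098) and on omission of the 4 shallowest libraries (0.067). Permutation within replicate numbers gave 0.27 but decides nothing. With 5 libraries at 15 months, that test could not reach 0.05 whatever the values. The choice of count row also bears on both differences. The second row of mmu-miR-92a-3p held a median of 30.7% of the first row's reads at 13.5 months. At 15 months it held 44.1% and at 16.5 months 43.7%. A ratio to the second row would therefore differ less between 13.5 months and the later ages. Whether either difference would still pass was not tested.

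mmu-miR-363-3p had a median of 5.92 reads per 100000 of mmu-miR-92a-3p at 13.5 months and 17.7 at 16.5 months, a log2 difference of 1.53 (permutation test, adjusted p = 0.018). It was 1.35 and no longer passed without the 4 shallowest libraries (permutation test, adjusted p = 0.067). The remaining calls were for mmu-miR-32-5p, lower at 13.5 months than at 12 months by a log2 difference of -2.74, and higher again at 16.5 months by 1.86 (permutation tests, adjusted p = 0.018 each). With 0 reads in 11 of 12 libraries at 13.5 months, those ratios were set by the added 0.5 and the count of mmu-miR-92a-3p. Against 12 months the ratios of mmu-miR-92b-3p and mmu-miR-363-3p at 13.5 months differed by log2 -0.45 and -1.47, and neither passed (exact permutation tests, adjusted p = 0.13 and 0.079). The latter passed without 12 months replicate 2 (exact permutation, adjusted p = 0.037) or 13.5 months replicate 12 (0.028). From 15 to 16.5 months the ratio of mmu-miR-363-3p was higher by 1.26 (exact permutation, adjusted p = 0.079), which passed without 15 months replicate 4 (0.029) or 16.5 months replicate 2 (0.038).

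**Figure D5:**
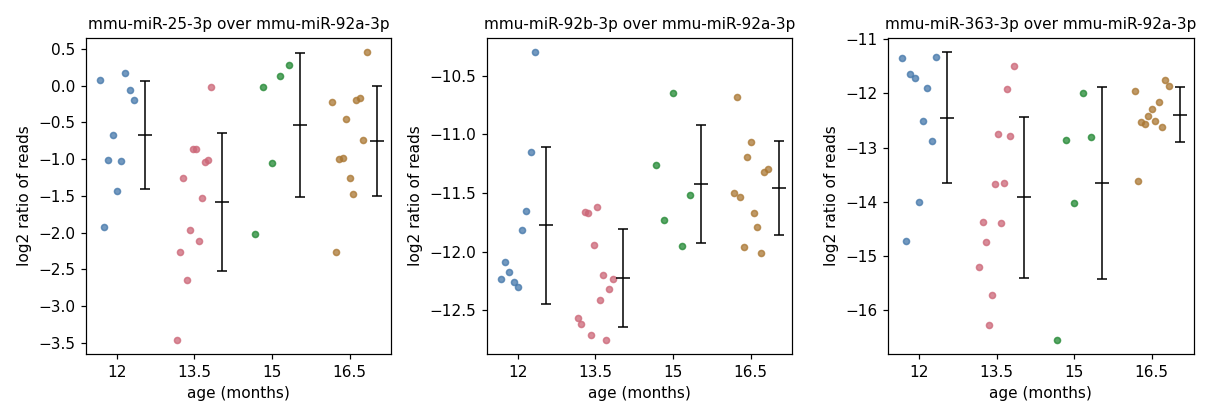
Log2 ratio of the reads of mmu-miR-25-3p, mmu-miR-92b-3p and mmu-miR-363-3p to those of mmu-miR-92a-3p in the same library, by age in months; points are libraries and bars mean ± SD of 9, 12, 5 and 11 libraries. In each panel the 13.5-month mean is the lowest, at -1.59, -12.2 and -13.9.

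The other arms of the 6 precursors were rare. miR-25-5p had a median of 70 reads, against 45375 of mmu-miR-25-3p, and miR-92a-1-5p had 96 reads in all. miR-92a-2-5p, miR-92b-5p and miR-32-3p had 0 reads, and miR-363-5p had 7. Of the 2 arms that could be tested, 0 passed the F-test in edgeR, with 0 at an unadjusted p under 0.05 and 0 in DESeq2 (miR-25-5p adjusted p = 0.96, miR-92a-1-5p 0.99, edgeR). miR-25-5p differed by log2 0.09 (SE 0.42) between 12 and 13.5 months. Its library-to-library course lay closer to mmu-miR-92a-3p (r 0.64) than to mmu-miR-25-3p (r of -0.001), and the difference between these correlations was not tested.

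Other microRNAs are cut from the same primary transcripts as the members. The clusters span 498 bases on chromosome 5, 836 on chromosome 14 and 875 on the X chromosome. Of the 4 products of the miR-106b/25 cluster other than those of miR-25, all were tested at the low filter, and from 12 to 13.5 months, when mmu-miR-25-3p rose, 0 of them passed in edgeR, with 0 at an unadjusted p under 0.05 and 0 in DESeq2 (lowest adjusted p 0.32 in edgeR). Over all 323 microRNAs 9.91% were called higher at this step and 11.8% lower, so 0 of 4 lies near the background. At 16.5 against 12 months miR-93-3p was higher (log2 0.76, SE 0.23, adjusted p = 0.023 in edgeR), while miR-106b-5p (log2 -1.21, SE 0.36, adjusted p = 0.022) and miR-93-5p (-0.70, SE 0.21, adjusted p = 0.022) were lower, where 9.60% of microRNAs were called lower. The direction of the latter 2 was the same under 5 scalings. miR-93-3p passed in 3 of them.

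Of 10 products of the miR-17/92 cluster, 7 were tested. At 13.5 against 12 months 1 of them was called, miR-19b-3p, which was lower (log2 -0.93, SE 0.29, adjusted p = 0.017 in edgeR), where 11.8% of microRNAs were called lower and mmu-miR-92a-3p rose. It passed in 4 of 5 scalings, and its F-test over ages did not pass (adjusted p = 0.052 in edgeR). miR-17-3p was not called at that step (log2 0.36, adjusted p = 0.23 in edgeR). Against 13.5 months it was lower at 15 months (log2 -0.97, SE 0.26, adjusted p = 0.011 in edgeR) and at 16.5 months (-0.60, SE 0.20, adjusted p = 0.022), like mmu-miR-92a-3p. It was the only 1 of the 7 called in either, where 6.50% and 14.9% of microRNAs were called lower. Its F-test passed (adjusted p = 0.011 in edgeR). At 16.5 against 12 months miR-17-5p (log2 -0.96, SE 0.29, adjusted p = 0.025 in edgeR) and miR-20a-5p (-1.15, SE 0.40, adjusted p = 0.043) were lower in each of 5 scalings. In that comparison 9.60% of microRNAs were called lower. The F-test over ages did not pass for miR-20a-5p (adjusted p = 0.091 in edgeR). miR-17-5p and miR-20a-5p belong, with miR-106b-5p and miR-93-5p, to the seed family named for miR-17, which was not tested as a set. The median log2 difference over the 7 was -0.52 at 13.5 months, beside -0.04 over all 323. The X-linked cluster also holds a precursor of miR-19b-3p, so its level cannot be split between the 2 clusters. Of the 7 products made in the X-linked cluster alone, the arms of the members' own precursors left out, none had enough reads to be tested, and 3 had 0 reads.

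Markers of blood cells were present, as the tissue label has it. The 5 red cell microRNAs (miR-451a, miR-486a-5p, miR-144-3p, miR-144-5p, miR-16-5p) summed to between 242000 and 833000 CPM at 12 months, 258000 and 1560000 at 13.5 months, 465000 and 1030000 at 15 months and 322000 and 859000 at 16.5 months. TMM scaling does not hold such a sum to the library's total, and nearly all of it was miR-486a-5p. From 12 to 13.5 months, 3 of the 5 were lower, where 11.8% of all 323 microRNAs were. They were miR-451a (log2 -1.28, SE 0.39, adjusted p = 0.015 in edgeR), miR-144-3p (-1.56, SE 0.44, adjusted p = 0.0096) and miR-144-5p (-1.51, SE 0.29, adjusted p = 0.00021). Neither miR-486a-5p (log2 0.41, SE 0.24, adjusted p = 0.23 in edgeR) nor miR-16-5p (-0.17, SE 0.18, adjusted p = 0.55) passed, and miR-486a-5p leaned the other way. Of 5 white cell microRNAs, 2 were lower at that step (miR-223-3p and miR-142a-3p), against the same 11.8%, and 2 were higher at 16.5 against 13.5 months (miR-142a-3p and miR-142a-5p), where 11.8% of microRNAs were called higher. Their summed range was 2470 to 3590 CPM at 12 months, 1260 to 3290 at 13.5 months, 2170 to 3390 at 15 months and 2550 to 4720 at 16.5 months. The 2 platelet and vessel wall markers summed to 0.729 to 5.39 CPM at 12 months, 0 to 2.95 at 13.5 months, 0.416 to 2.57 at 15 months and 0.686 to 1.5 at 16.5 months. Of 6 markers of liver, muscle and brain, miR-1a-3p had 0 reads and 1, the muscle microRNA miR-133a-3p, was tested. It changed with age (adjusted p = 0.027 in edgeR) and was lower at 16.5 than at 12 months (log2 -1.79, SE 0.49, adjusted p = 0.017 in edgeR). Their sum ran from 1.14 to 24.6 CPM at 12 months, 1.30 to 13.4 at 13.5 months, 1.13 to 8.20 at 15 months and 0.468 to 5.68 at 16.5 months. The part of these cell markers in the members' courses was not tested.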

How the data were processed

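Small RNA from whole blood of 37 libraries was sequenced as single-end reads (Illumina HiSeq). The authors trimmed adapters with cutadapt, dropped reads shorter than 18 bases, checked quality with FastQC 0.11.5, and mapped and counted with miRDeep2 against mm10 and miRBase with 0 mismatches. They deposited raw counts per mature microRNA, with a row for each precursor. They also deposited a normalized signal for 337 microRNAs, in which each value equalled the first-row count times 1 factor per library (100% of values, tolerance 0.1%). That factor served as an alternative scaling only.

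First rows gave 1915 microRNAs. edgeR 4.0.16 (R 4.3.3) fitted quasi-likelihood models with TMM factors (0.309 to 1.97) over the 4 ages, after 2 filters (reads above 100, the study's, or above 1, in 50% of libraries or more), with Benjamini-Hochberg adjustment at 0.05. Each filter had its own TMM factors, and printed CPM are those of the 100-read filter. A standard error is the log2 fold change over the square root of F. Ratios within a library were tested by permutation with numpy 2.4.6, 24 in one family, and Poisson intervals used scipy 1.17.1. The 0.5 added to counts, and the 1 added to CPM before log2, shrink differences of low values. A 0 was taken to allow up to 3 reads. Intervals and floors cover counting error only. Alternatives included DESeq2 1.42.0, other scalings, 1 RUVs factor, summed rows, a replicate block, no filter and each library left out. Scripts were tested on simulated data.

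Named were the 5 members, the 3 microRNAs most and least like each abundant member, and called members of lists (cluster neighbours, other arms, cell markers). Members and lists were chosen with earlier results of these data known.

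Whether replicate numbers pair the libraries was not settled. Over 44 same-numbered pairs the deviations from the age means had a mean correlation of -0.0349, from -0.863 to 0.825. Pairs with different numbers were not set beside them.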

Additional observations from a re-analysis of the deposited data

Results flagged for a closer look

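Among 16 groups of 4 to 10 libraries examined for a library far from the rest, at ages with 9 and 5 libraries and over 8 measures, 2 held one. Chance gives about 1 in 20. In mmu-miR-25-3p at 12 months, replicate 1 had 5546 CPM and the next library 4300, a gap of 0.596 of the whole range where the 95% limit is 0.493. Without it the rise at 13.5 months was log2 0.56, that at 16.5 months 0.45, and that at 15 months 0.46, which then passed (adjusted p = 0.039 in edgeR). In mmu-miR-92a-3p at 12 months, replicate 2 had 16360 CPM and the next library 9338, a gap of 0.548 of the range. Without it the rise at 13.5 months was log2 2.05 (adjusted p = 0.00012 in edgeR). The source of either value was not tested.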

How the results depend on the processing

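The rise of mmu-miR-92a-3p at 13.5 months passed in each of 13 alternatives and without each library in turn (log2 0.87 to 1.76 and 1.55 to 2.05). Its fall to 16.5 months passed in 12 of 13 (-1.29 to -0.60) and without each library (-1.38 to -0.94), and missed with its second count row. The rise of mmu-miR-25-3p at 13.5 months passed in 11 of 13 alternatives and that at 16.5 months in 10. At 15 months it passed in 4 of 13, without any one of 8 of the 37 libraries, and with 12 of 37 libraries as the TMM reference. Of the members, 2 passed the F-test with the 100-read filter and 2 with the 1-read filter, with 5 and 6 calls between pairs of ages. Scaling by total count left 1, 1, 3 and 3 of these, scaling by counts outside miR-486 left 3 and 3 pairs and 1 in the 1-read F-test, and with no filter 1 passed the F-test. The second row of mmu-miR-92a-3p in place of the first left 1 in the 100-read F-test and 3 of the 100-read pairs. Of the ratios, 5 passed; a test of medians left 1, and omission of the 4 shallowest libraries left 3. Without single libraries the counts ran from 2 to 2, 5 to 6, 2 to 3 and 4 to 6, and for ratios from 4 to 9.

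With a replicate block, 2 and 3 members passed the F-tests, with 5 and 6 pairs, and 6 ratios passed; mmu-miR-25-3p over mmu-miR-92a-3p then passed at 13.5 against 12 months (-1.21, adjusted p = 0.035 by permutation within numbers), as did mmu-miR-363-3p (-2.08). The block turned mmu-miR-25-3p at 16.5 against 15 months to 0.018, mmu-miR-363-3p at 13.5 against 12 months to -0.10, and ratios of mmu-miR-92b-3p and mmu-miR-32-5p at 16.5 against 15 months to 0.047 and -0.013 and of mmu-miR-363-3p at 16.5 against 12 months to -0.07. Of 44 same-numbered pairs, 20 correlated over 0.1, which does not settle whether equal numbers mean the same mouse. The labels do not say so, and the numbers were not taken as pairs. No ratio that involves 15 months could pass within numbers, with 5 libraries at that age.

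Every other turn of direction was in a comparison that had not passed. At 16.5 against 15 months, mmu-miR-92a-3p turned to -0.003 (DESeq2 size factors in edgeR, and DESeq2) and -0.039 (outside miR-486), mmu-miR-92b-3p to -0.011 (DESeq2 size factors, and the authors' factor), -0.108 (outside miR-486) and -0.047 (DESeq2), and mmu-miR-25-3p to 0.298 (total count) and 0.035 (no filter). At 15 against 12 months, total count gave -0.203 for mmu-miR-25-3p and -0.352 for mmu-miR-92a-3p, which was -0.02 without the 4 shallowest libraries and -0.054 with the GC slope. At 15 against 13.5 months, mmu-miR-25-3p was 0.116 (outside miR-486) and 0.035 (without the shallowest), and mmu-miR-92b-3p 0.012 (outside miR-486). mmu-miR-363-3p at 13.5 against 12 months was -0.249 (total count) and -0.139 (outside miR-486). Differences in medians gave 0.019 and -0.004 for the ratios of mmu-miR-92b-3p and mmu-miR-32-5p at 16.5 against 15 months, and -0.518 for mmu-miR-363-3p at 16.5 against 12 months.

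Ranges without single libraries that crossed 0 were, for mmu-miR-25-3p, -0.323 to 0.002 (15 against 13.5 months) and -0.058 to 0.236 (16.5 against 15). For mmu-miR-92a-3p they were -0.107 to 0.572 (15 against 12) and -0.096 to 0.712 (16.5 against 15), for mmu-miR-92b-3p -0.237 to 0.508 (16.5 against 15) and for mmu-miR-363-3p -0.079 to 0.169 (13.5 against 12). For ratios to mmu-miR-92a-3p they were -0.066 to 0.51 and -0.237 to 0.071 for mmu-miR-25-3p (15 and 16.5 against 12), -0.169 to 0.157 for mmu-miR-92b-3p (16.5 against 15), and -0.225 to 0.199 (16.5 against 12) and -0.143 to 0.993 (15 against 13.5) for mmu-miR-363-3p. The cause of these changes was not tested. The second row, the GC slope, the depth covariate, the omission of the shallowest libraries and the TMM references were chosen after seeing the data. Depth outside miR-486 limits the 3 scarce members.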
